A study of Mus musculus with 9 samples.

Results

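The H3K27me3 peak list of MYCN-driven T cell lymphoma cells from the thymus of C57BL/6J mice was described gene by gene. The list held 123056 distinct peaks on chromosomes 1 to 19, X and Y, out of 282301 peaks in the 7 lists of the series, and every peak of the list was used. Chromatin had been immunoprecipitated by ChIPmentation, in which sequencing adapters are inserted into the antibody-bound chromatin by a transposase. The H3K27me3 antibody was the rabbit monoclonal clone C36B11. Each of the 7 antibodies, against EZH2, SUZ12, H3K4me3, H3K27ac, H3K27me3, N-MYC and p300, was used on 1 library, and 2 input libraries carried no peak list. All libraries came from the same kind of cell, so the series has no untreated or normal thymus group for this mark. The labels give no age, sex or number of animals, no promoter for the MYCN transgene, and do not say whether animals were pooled. No difference below therefore has a replicate check. The intervals are 95% Wilson intervals, which cover counting error only, and neighbouring genes can share a peak.

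H3K27me3, trimethylation of lysine 27 on histone H3, is written by Polycomb repressive complex 2, whose catalytic subunit is EZH2 or EZH1 and whose core subunits include SUZ12 and EED. Polycomb repressive complex 1 reads the mark through its CBX proteins. The mark is known for covering genes that direct the development of other tissues, often over CpG-rich sequence and often as broad blanketed regions, and it is placed and removed at lineage genes as thymocytes mature. H3K4me3 and H3K27ac mark active starts.

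A gene start was called marked when at least 1 bp of an H3K27me3 peak lay within 1 kb of it. The promoters below, from RefSeq on GRCm38.p6, run from 250 bases before to 50 bases after the start and are shown because they span the range of what was found: the protein-coding start under the peak of highest fold enrichment (Evx1), the start of the endogenous Mycn gene, a CpG-rich start that carried H3K4me3 as well (Cdkn2a), 2 marked starts with few CpG and no SUZ12 peak (Rag1 and Lyz2), and 2 unmarked starts of active genes (Cd3e and Rpl10). Each is printed 5′ to 3′ along its gene, and capitals mark each CG dinucleotide.
Evx1, chr6:52313248-52313547, plus strand: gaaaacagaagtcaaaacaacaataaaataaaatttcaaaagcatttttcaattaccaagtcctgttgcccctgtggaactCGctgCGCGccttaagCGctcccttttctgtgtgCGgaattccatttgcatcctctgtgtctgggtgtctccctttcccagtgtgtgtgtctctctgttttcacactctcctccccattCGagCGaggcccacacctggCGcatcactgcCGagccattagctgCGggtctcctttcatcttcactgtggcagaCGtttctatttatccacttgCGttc
Mycn, chr12:12941787-12942086, minus strand: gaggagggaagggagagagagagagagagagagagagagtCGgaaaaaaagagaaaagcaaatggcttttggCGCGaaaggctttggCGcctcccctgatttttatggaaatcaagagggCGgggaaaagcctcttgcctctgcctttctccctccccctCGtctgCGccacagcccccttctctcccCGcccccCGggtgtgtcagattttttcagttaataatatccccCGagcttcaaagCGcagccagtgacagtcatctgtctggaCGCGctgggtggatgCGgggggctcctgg
Cdkn2a, chr4:89294570-89294869, minus strand: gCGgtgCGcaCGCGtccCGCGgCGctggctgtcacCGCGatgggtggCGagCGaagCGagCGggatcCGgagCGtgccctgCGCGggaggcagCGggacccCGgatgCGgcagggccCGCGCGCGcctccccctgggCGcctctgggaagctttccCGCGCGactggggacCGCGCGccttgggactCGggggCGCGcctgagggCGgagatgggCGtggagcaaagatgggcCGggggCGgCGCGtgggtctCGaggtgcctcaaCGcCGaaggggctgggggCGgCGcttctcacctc
Rag1, chr2:101649483-101649782, minus strand: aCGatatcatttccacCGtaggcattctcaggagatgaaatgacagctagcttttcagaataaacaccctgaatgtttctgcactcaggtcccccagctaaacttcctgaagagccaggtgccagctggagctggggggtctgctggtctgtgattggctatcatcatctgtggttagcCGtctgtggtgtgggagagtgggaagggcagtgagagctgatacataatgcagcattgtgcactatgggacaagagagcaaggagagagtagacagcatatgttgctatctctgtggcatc
Lyz2, chr10:117282223-117282522, minus strand: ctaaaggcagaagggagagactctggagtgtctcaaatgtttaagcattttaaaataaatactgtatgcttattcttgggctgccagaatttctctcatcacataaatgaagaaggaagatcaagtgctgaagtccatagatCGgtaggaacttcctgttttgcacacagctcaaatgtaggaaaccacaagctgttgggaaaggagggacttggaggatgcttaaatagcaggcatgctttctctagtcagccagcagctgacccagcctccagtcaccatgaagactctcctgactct
Cd3e, chr9:45009562-45009861, minus strand: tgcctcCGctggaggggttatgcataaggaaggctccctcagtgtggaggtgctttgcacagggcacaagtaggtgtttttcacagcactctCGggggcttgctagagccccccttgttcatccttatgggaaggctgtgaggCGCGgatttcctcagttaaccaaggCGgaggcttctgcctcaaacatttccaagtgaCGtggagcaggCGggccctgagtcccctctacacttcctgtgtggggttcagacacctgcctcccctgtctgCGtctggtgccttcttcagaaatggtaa
Rpl10, chrX:74270566-74270865, plus strand: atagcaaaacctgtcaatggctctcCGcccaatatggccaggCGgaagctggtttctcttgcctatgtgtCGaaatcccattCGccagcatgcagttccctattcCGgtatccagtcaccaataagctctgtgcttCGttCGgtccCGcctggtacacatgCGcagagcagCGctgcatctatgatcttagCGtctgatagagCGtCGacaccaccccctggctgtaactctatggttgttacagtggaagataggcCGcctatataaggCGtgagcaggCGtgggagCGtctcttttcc
All 300 bases lay under H3K27me3 peaks at the first 5 of these promoters, and 0 bases at Cd3e and Rpl10. The fold enrichment the authors gave the strongest peak at the start was 31.6 at Evx1, 21.3 at Mycn, 15.2 at Cdkn2a, 13.9 at Rag1 and 7.53 at Lyz2. The printed sequences held 12 CG dinucleotides at Evx1, 14 at Mycn, 45 at Cdkn2a, 3 at Rag1, 1 at Lyz2, 8 at Cd3e and 17 at Rpl10. The 7 were picked to span the range, so their counts are examples only.

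The peaks were many and mostly narrow. They covered 111.6 Mb, which is 4.10% of the 2.72 Gb spanned by the 21 chromosomes, with a median width of 382 bp (quartiles 258 and 695 bp) and a median fold enrichment of 4.20 (lowest 1.28, highest 31.6). Peaks under 1 kb made up 83.3% of the list and held 36.3% of the covered bases. The 1114 peaks of at least 10 kb held 16.4% of the covered bases and had a median fold enrichment of 14.4, against 4.04 for peaks under 1 kb. Across peaks, width and fold enrichment rose together (Spearman correlation 0.583 over the list, given as a description, since both come from the same pile-up). The widest peak, 149987 bp at chr15:102902773-103052759 with a fold enrichment of 18.8, contained the whole Hoxc cluster.

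Gene bodies held somewhat more of the mark than their length, and gene starts held much more. Bodies of protein-coding genes (RefSeq, GRCm38.p6) contained 48.1% of the covered bases and take up 37.9% of the chromosome span, a ratio of 1.27. With all annotated genes the shares were 58.6% and 45.7%. The windows within 1 kb of a protein-coding start contained 7.66% of the covered bases in 1.81% of the span, a ratio of 4.22, and 17.3% of their bases were covered. For comparison, protein-coding bodies contained 57.0% of the bases of the SUZ12 list, 67.5% of EZH2, 64.8% of H3K27ac, 68.7% of N-MYC, 69.5% of p300 and 76.3% of H3K4me3, so H3K27me3 had the lowest share in bodies of the 7 lists.

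Peaks at starts were a small and wide class, and most peaks away from starts carried neither subunit of the complex. The 7837 peaks that touched a start window were 6.37% of the list (6.23 to 6.51%) and held 27.7% of the covered bases, with a median width of 1563 bp and a median fold enrichment of 6.16. SUZ12 peaks overlapped 37.9% of them and EZH2 peaks 37.7%. Another 50923 peaks (41.4%) lay in a body away from any start, with a median width of 373 bp, a median fold enrichment of 4.17 and a SUZ12 peak on 1.63%. A further 12963 peaks (10.5%) touched only a non-coding gene or pseudogene. The remaining 51333 peaks (41.7%) touched no annotated gene, held 29.4% of the covered bases and overlapped a SUZ12 peak in 0.953% of cases. Of the 64296 peaks outside protein-coding bodies and starts, 31.4% had a protein-coding gene no more than 10 kb away, and 7376, or 11.5%, were over 100 kb from the nearest.

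Over all protein-coding genes, 5560 of 21883 starts were marked, 25.4% (24.8 to 26.0%). At 2607 of these, 46.9%, the whole window was covered, and the median fold enrichment at a marked start was 9.18. At least 50% of the body was covered in 1599 genes (7.31%), and 479 bodies were covered from end to end. Any covered base in the body was found in 6597 genes (30.1%). Nearly all genes with at least 50% of the body covered also had a marked start (1555 of 1599, 97.2%). The converse did not hold, since 1470 marked genes (26.4%) had less than 5% of the body covered. For the shortest genes the 97.2% is partly built in, since the start window reaches 1 kb into the body. Of the 1599 genes, 572 were under 5 kb. The cover was concentrated: 725 genes, 3.31% of all, held 50% of the bases covered in bodies. The annotation table carries no strand, and strand could be taken from the promoter table for 17491 genes. Of these 23.8% were marked, against 31.7% of the other 4392 genes, for which the better covered of both gene ends was used.

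Where short genes were touched, most of the body was usually covered, and long genes were marked at the start with little of the body covered. Among the 5034 genes under 5 kb, 17.4% had a marked start and, where any base was covered, the median cover was 84.2% of the body; 332 of the 864 touched genes were covered whole. Among the 2428 genes of 100 kb and over, 47.3% had a marked start and the median cover was 2.97%. In all, 29 genes of at least 100 kb had at least 50% of the body covered. Non-coding genes were marked less often than protein-coding ones, at 20.8% of 12727 lncRNA genes, 14.01% of 1228 miRNA genes, 9.68% of 9944 pseudogenes and 5.07% of 1340 snoRNA genes. The 408 tRNA genes stood apart in that 26.2% had a peak within 1 kb and 20.8% had at least 50% of their short body covered. Since tRNA genes occur in near-identical copies, how reads were divided among them is uncertain.

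The genes with the most covered bases were long, and several are known for roles in neurons. Cep112, a centrosomal protein gene of 435.4 kb at chr11:108425215-108860615, had 260.9 kb covered (59.9% of its body). Itsn1, the endocytic scaffold intersectin 1 at chr16:91729310-91920591, had 168.1 kb covered (87.9%), and it carried H3K4me3 and H3K27ac peaks at its start as well. Tanc2, a postsynaptic scaffold, had 160.9 kb covered (47.4%), Scn8a, a neuronal sodium channel, 150.8 kb (85.6%), and Rapgef4, a cAMP-regulated exchange factor, 144.3 kb (52.2%). All 5 had a SUZ12 peak at the start. Only Itsn1 among them had an H3K4me3 peak there.

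Among genes of at least 10 kb, the longest with every base covered were developmental regulators apart from 1 gene. Lhx2 (30.5 kb), Dmbx1 (25.5 kb), Nr2e1 (21.6 kb) and Prdm12 (20.8 kb) encode transcriptional regulators of the nervous system and other embryonic tissues, and each lay inside a single start peak of 29.1 to 45.1 kb. The exception was Gm8909 (24.8 kb), a predicted gene of the MHC region on chromosome 17, where close copies share sequence and the placing of reads is uncertain. The highest fold enrichments at starts, counting 1 gene per peak, were at Evx1 (31.6), Hoxa10 (29.5, in a peak of 73.7 kb), Lhx4 (28.5), Sox14 (28.0) and Foxc1 (26.5), all genes of developmental transcription factors. Foxc1 alone of these 5 also carried an H3K4me3 peak.

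Gene families differed far more in their share of marked starts than the count error of each share. Of 54 families, 37 had a higher share than the 25.4% of all protein-coding genes and 17 had not. On both sides the interval of some families included 25.4%. Interleukin receptors (26.8%, 15.7 to 41.9%) and Toll-like receptors (25%, 8.89 to 53.2%) are examples. Developmental transcription factors had 196 of 234 starts marked (83.8%, 78.5 to 87.9%), secreted signals and their receptors 88 of 114 (77.2%, 68.7 to 83.9%), and channels and receptors of excitable cells 122 of 177 (68.9%, 61.8 to 75.3%). At the other end stood genes that every cell uses, with 8 of 297 marked (2.69%, 1.37 to 5.22%). Tandem gene arrays had 228 of 2093 (10.9%, 9.63 to 12.3%). The families and their groups were chosen with earlier results of these data known, so the order of the groups is a description.

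**Figure D1:**
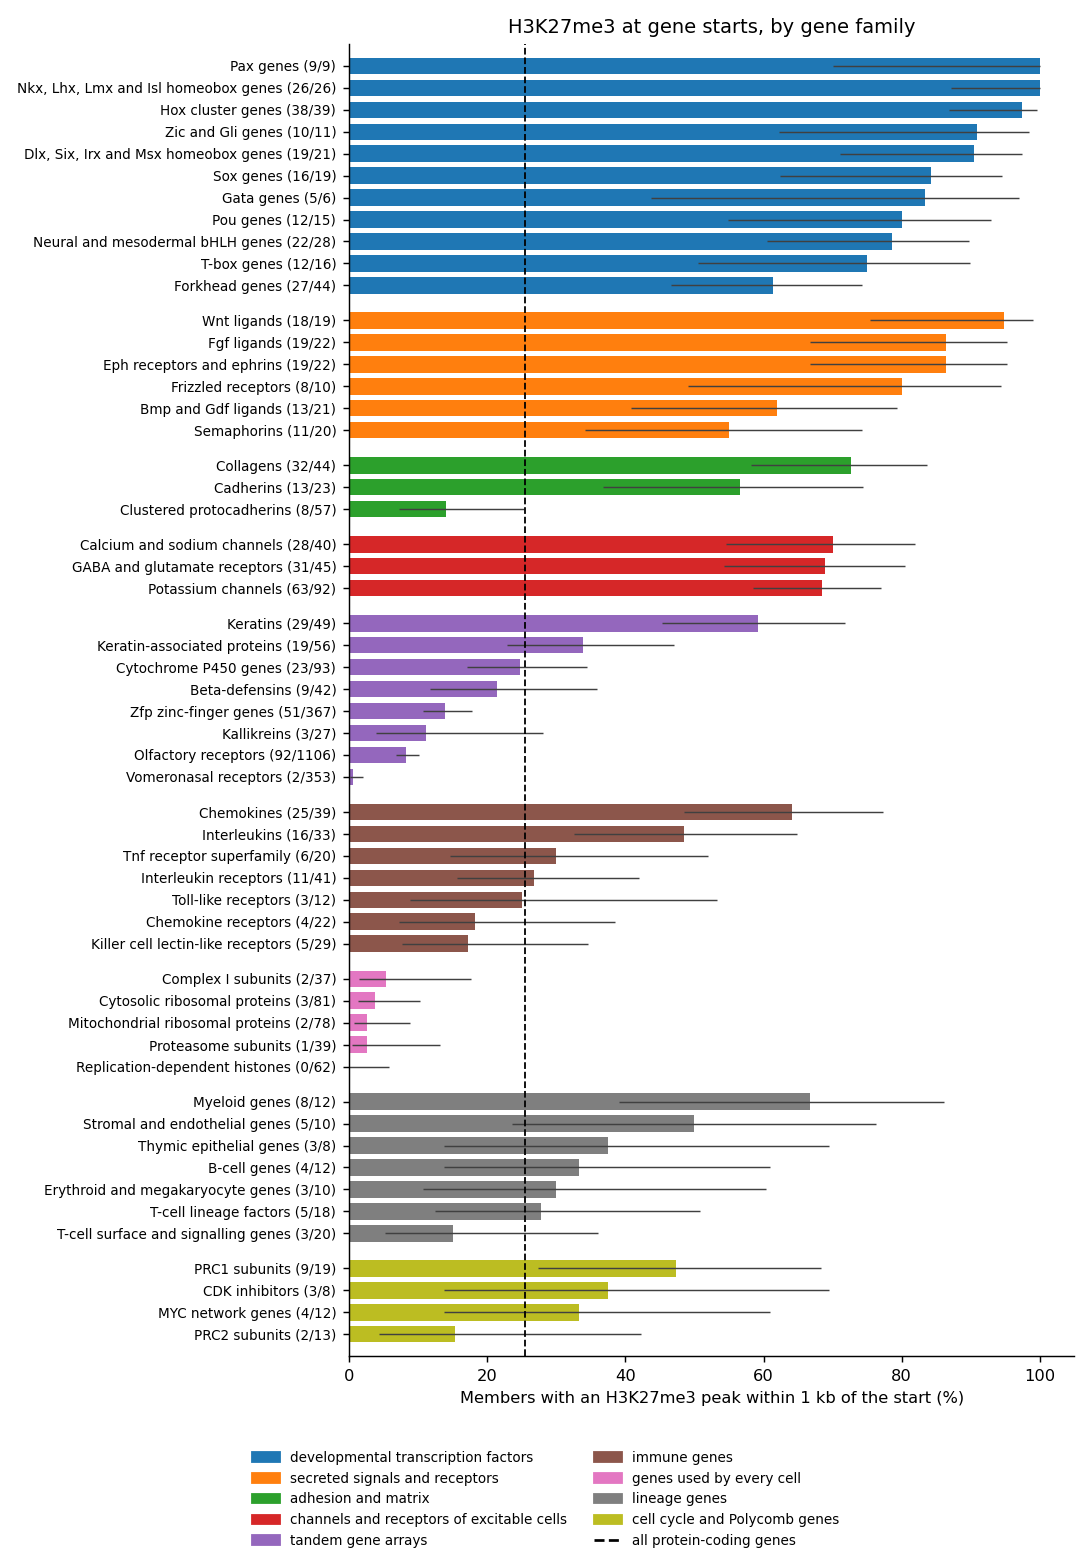
Share of members with a marked start (x axis, percent) for each of the 54 gene families, grouped by colour, with the number marked of the number annotated beside each name; horizontal lines are 95% Wilson intervals and the dashed line is the 25.4% of all protein-coding genes. Bars of the developmental transcription factors run from 61.4% to 100%, and those of the genes used by every cell from 0% to 5.41%.

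Pax and Hox genes, and the Nkx, Lhx, Lmx, Isl, Dlx, Irx, Msx and sine oculis-related genes, were marked almost without exception. All 9 Pax genes and all 26 Nkx, Lhx, Lmx and Isl genes had a marked start, and 25 of those 26 had at least 50% of the body covered. Of the 39 Hox genes, which set position along the body axis, 38 were marked, and of the 21 genes of the Dlx, Irx, Msx and sine oculis-related homeobox groups, 19 were marked. The exceptions were Hoxa5, with 18% of its body covered, Irx6, with 17.0%, and Six5, with 0%. Six5 carried H3K4me3 and H3K27ac instead, while Hoxa5 and Irx6 carried neither. The median fold enrichment where marked ran from 13.1 for Pax to 18.8 for Hox genes.

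Other families of developmental factors were marked at most members. Zic and Gli genes were marked at 10 of 11, neural and mesodermal bHLH genes such as Neurod1, Neurod2 and Hand2 at 22 of 28, Pou genes at 12 of 15 and Forkhead genes at 27 of 44. Sox genes were marked at 16 of 19; the unmarked ones were Sox4, which acts in lymphocyte development and carried H3K4me3 and H3K27ac, Sox15 and Sox30. T-box genes were marked at 12 of 16; the unmarked ones were Tbx21, the T-bet factor of T helper cells, which also carried H3K4me3 and H3K27ac, Tbx6, Tbx19 and Tbx22. Among Pou genes, Pou2f1, the broadly expressed Oct-1, was unmarked with H3K4me3 and H3K27ac, and so were Pou5f1 and Pou5f2 with no H3K4me3 or H3K27ac peak. Gata genes were marked at 5 of 6, with fold enrichments of 22.4 at Gata2, 21.7 at Gata4, 20.4 at Gata6, 18.2 at Gata3 and 11.99 at Gata5. The exception was Gata1 on the X chromosome, the erythroid factor, with 0% of its body covered.

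Signalling genes were marked at 77.2% of starts, and fewer of them were covered across the body. Wnt ligands were marked at 18 of 19, and the exception, Wnt6, still had 78.9% of its body covered. Fgf ligands were marked at 19 of 22, Eph receptors and ephrins at 19 of 22 and Frizzled receptors, which bind Wnt ligands, at 8 of 10. The shares were lower in Bmp and Gdf ligands, at 13 of 21 (61.9%), and semaphorins, which guide axons, at 11 of 20 (55%). Fzd5 and Fzd7, the unmarked Frizzled genes, had 0% covered and carried H3K4me3 and H3K27ac. At least 50% of the body was covered in 36 of the 114 signalling genes (31.6%), against 168 of 234 developmental factors (71.8%) and 7.31% of all genes. The examples covered from end to end included Wnt1, Fgf3, Fgf15, Gdf7 and Efna2.

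**Figure D2:**
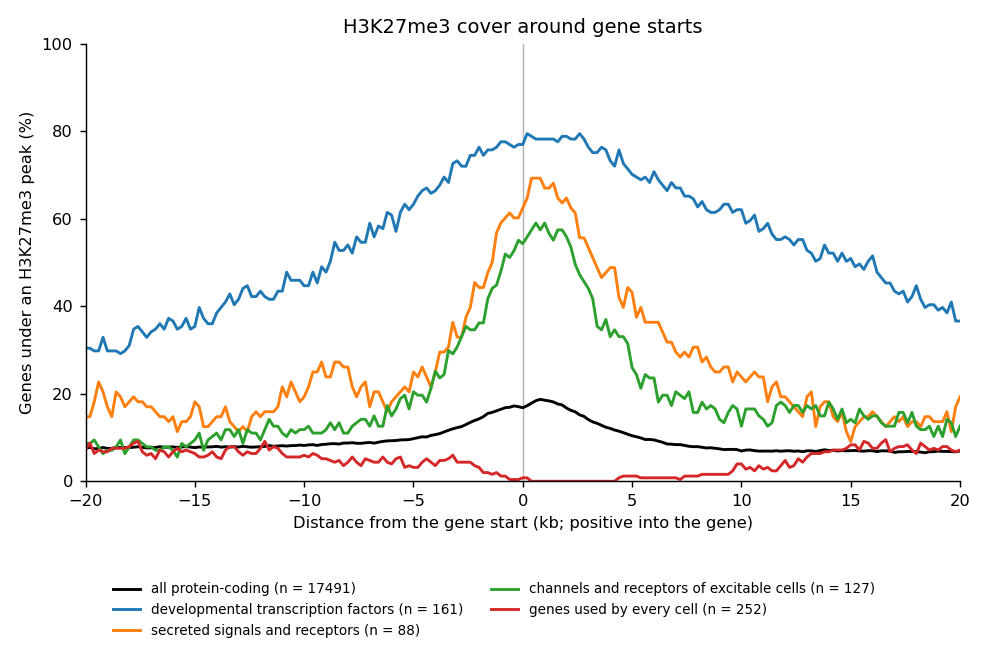
Share of genes lying under an H3K27me3 peak (y axis, percent) at each distance from the gene start (x axis, kb, positive into the gene), for the genes with a known strand in 4 family groups and over all 17491 such genes. The line of developmental transcription factors stays at 30.4% at 20 kb before and 36.6% at 20 kb after the start, whereas that of the channels falls to 12.6% at 10 kb into the gene.

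The width of the cover differed among these groups, as the plot around starts shows. Exactly at the start, 77.0% of the 161 developmental transcription factors with a known strand were under a peak, 62.5% of the 88 signalling genes, 54.3% of the 127 channel and receptor genes and 16.8% of all 17491 genes. At 10 kb into the gene the shares were 62.1%, 23.9%, 12.6% and 6.92%. The highest share lay 200 to 600 bp downstream of the start in the 3 groups. Genes used by every cell dipped at the start, from 7.14% at 20 kb before it to 0.794% at it.

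Channels, receptors and matrix genes were marked at starts, mostly with narrow cover. Potassium channel genes were marked at 63 of 92, calcium and sodium channel genes at 28 of 40, GABA and glutamate receptor genes at 31 of 45 and collagen genes at 32 of 44. At least 50% of the body was covered in 32 of the 177 channel and receptor genes (18.1%), against 7.31% of all genes. Examples were Kcna7, with 100% of its 5.42 kb covered, and Cacna1g, a T-type calcium channel with 97.1% of 66.0 kb. Grin1, the shared NMDA receptor subunit, had 93.6% covered, and the cadherin gene Cdh22 had 69.8% of 123.4 kb. Of the 44 collagen genes, 1 had at least 50% of the body covered. Clustered protocadherin genes, which give neurons their surface identity, were marked at 8 of 57 (14.04%). The strand was not known for any of the 57, so the better covered gene end was used and these calls may lie at either end.

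Among the tandem arrays, keratins stood high and chemosensory receptors low. Keratin genes, which encode the filaments of epithelia, were marked at 29 of 49 (59.2%) with a median fold enrichment of 5.07, and keratin-associated protein genes of hair at 19 of 56 (33.9%). Olfactory receptor genes were marked at 92 of 1106 (8.32%, median fold enrichment 4.45) and vomeronasal receptor genes at 2 of 353 (0.567%). Zfp zinc-finger genes were marked at 51 of 367 (13.9%), and 76.6% of that family had an H3K4me3 peak. SUZ12 peaks were found at the starts of 6.12% of keratin genes and 0.181% of olfactory receptor genes, against 94.9% of Hox genes. Some members of these arrays are close copies, and how reads were divided among those is uncertain. The families were drawn by gene symbol, and the Zfp genes lie on 20 chromosomes and not in a single array.

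Genes that every cell uses were nearly free of the mark. None of the 62 replication-dependent histone genes had a marked start. Among the 81 cytosolic ribosomal protein genes 3 were marked, each with 0% of the body covered, and of these Rpl26 and Rpl31 had 208 and 74 bp covered in the window. Mitochondrial ribosomal protein genes were marked at 2 of 78, proteasome genes at 1 of 39 and complex I genes at 2 of 37. The marked proteasome gene was Psma8, known for its role in the testis, with 22.3% of its body covered and no H3K4me3 peak.

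Immune genes lay between these groups, at 70 of 196 marked (35.7%, against 25.4% of all protein-coding genes), and their families differed. Chemokine genes were marked at 25 of 39 (64.1%), with Cxcl1 and Cxcl2, which attract neutrophils, covered from end to end and Cxcl9, an interferon-induced attractant of T cells, at 96.4%. Interleukin genes were marked at 16 of 33 (48.5%). Interleukin receptor genes, at 11 of 41 (26.8%), and Toll-like receptor genes, at 3 of 12 (25%, Tlr2, Tlr5 and Tlr6), stood near the share of all genes, and chemokine receptor genes, at 4 of 22 (18.2%, Ccr10, Ccr6, Cxcr2 and Ackr3), below it. Il2ra, the alpha chain of the interleukin 2 receptor, had 46.6% of its body covered without a marked start. Il11 (69.5%) and the collagen gene Col16a1 (57.7%) were likewise covered away from the annotated start.

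The markers of the labelled cell type lay outside the mark. Of 8 T cell markers, Cd2, Cd3d, Cd3e, Cd3g, Cd5, Cd247, Lck and Thy1, 0 had a marked start, and all 8 had H3K4me3 and H3K27ac peaks there. Markers of other cells the thymus could hold were marked in part: Ebf1 and Pax5 of 6 B cell markers, Cd14, Cebpa, Lyz2 and Spi1 of 6 myeloid markers, Epor of 4 erythroid markers, Krt8 of 4 thymic epithelial markers, and Cdh5, Col1a1, Kdr and Pdgfra of 6 markers of stroma and endothelium. The B cell, erythroid and thymic epithelial counts lie near the 25.4% of all protein-coding starts, and every set of markers is small. H3K4me3 peaks were found at 2 of the B cell, 2 of the myeloid, 3 of the erythroid, 1 of the thymic epithelial and 0 of the stromal and endothelial markers. H3K27ac peaks were found at 3 of the B cell, 3 of the myeloid, 4 of the erythroid, 1 of the thymic epithelial and 2 of the stromal and endothelial markers. Neither list shows how many such cells were in the sample, which was not tested.

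T cell genes were marked at shares near or below that of all protein-coding genes. Of 18 T cell lineage factors, 5 were marked (27.8%, against 25.4% of all starts): Gata3 at 18.2, Hes1, a Notch target, at 11.4, Lef1 at 9.40, Ikzf3 at 4.78 and Bcl11b at 4.69. Hes1 had 100% of its 2.44 kb covered and Gata3 25.8% of 30.9 kb, whereas Lef1 and Ikzf3 had 0% and Bcl11b 0.213% of the body covered. The peaks at Lef1, Ikzf3 and Bcl11b thus lay wholly or mostly outside the body, and all 3 starts carried H3K4me3 and H3K27ac. Gata3 carried neither. Unmarked factors included Notch1, Tcf7, Runx1, Ikzf1, Myb, Tox and Tcf12, each with 0% of the body covered.

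Among 20 T cell surface and signalling genes, the 3 marked ones (15%, against 25.4%) were Rag1, Rag2 and Cd8a. Rag1 and Rag2, neighbours on chromosome 2 that encode the recombinase of antigen receptor genes, had fold enrichments of 13.9 and 10.7 with 81.3% and 100% of the body covered. Cd8a, a chain of the CD8 coreceptor, had a fold enrichment of 8.29 and 28.0% of its body covered. None of the 3 had a SUZ12 or H3K4me3 peak at the start. Cd8b1 (15.7% of the body) and Dntt (7.28%), the latter encoding terminal transferase, had covered bases in the body and no marked start, while Cd4, Ptcra, Zap70 and Lat had 0%.

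Genes of alternative blood lineages were marked in different forms. Ebf1, which commits cells to the B lineage, had the highest fold enrichment among the lineage genes, 26.2, with 7.97% of its 390.0 kb body covered. Pax5 had 8.92 at the start and 30.1% of 185.9 kb covered. Tal1, a blood stem cell and erythroid factor, had 23.3 with 85.8% of its body covered and carried H3K4me3 and H3K27ac as well. Cebpa, a myeloid factor, had 15.5 and 100%, Spi1 had 5.51 with 0.00599% of the body, and Gfi1 had 5.04 and 62.7%. The alpha globin gene Hba-a1 was covered whole (8.31), within a run of 8 marked genes that also held its near-identical copy Hba-a2. The beta globin gene Hbb-bt had 0%.

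Endogenous Mycn was marked at a higher fold enrichment than most marked starts, and the related genes Myc and Mycl were marked as well. Mycn, on chromosome 12, had 100% of its 5.74 kb body covered at a fold enrichment of 21.3, without H3K4me3 or H3K27ac. Mycl had 90.6% covered (16.6) with H3K4me3, and Myc 100% (8.23) with both H3K4me3 and H3K27ac. Among their partners and antagonists only Mxi1 was marked, by a peak of fold enrichment 3.94 over 347 bp of the window. Max, Mga, Mnt, Mlx, Mxd1, Mxd3 and Mxd4 had 0% of the body covered.

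Of 8 CDK inhibitor genes, which restrain the cell cycle, Cdkn1c (100%, fold enrichment 10.1), Cdkn2a (97.6%, 15.2) and Cdkn2b (94.9%, 7.34) were marked and covered. The marked share was 37.5% (13.7 to 69.4%), an interval that includes the 25.4% of all protein-coding starts. Cdkn1b, Cdkn2c, Cdkn2d and Cdkn3 had 0% of the body covered and carried H3K4me3 and H3K27ac. Cdkn1a had 28.2% of its body covered with no peak at the annotated start. SUZ12 peaks lay at the starts of Cdkn1c and of Cdkn2a and Cdkn2b, which lie side by side on chromosome 4. Cdkn2a also carried H3K4me3, H3K27ac, N-MYC and p300 peaks at its start, and Cdkn2b carried H3K4me3 alone of these. Cdkn1c carried none of them.

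The genes of the machinery of the mark were themselves marked in part. Of 13 genes of Polycomb repressive complex 2 and its partners, 2 were marked (15.4%, 4.33 to 42.2%, against 25.4% of all protein-coding starts). They were Epop, an accessory subunit, with 82.0% of its body covered at 14.96, and Ezh1, with 87 bp of the window covered at 5.33. Ezh2, Suz12, Eed, Rbbp4, Rbbp7, Mtf2 and Phf19 had 0% of the body covered. Of 19 genes of Polycomb repressive complex 1, 9 were marked (47.4%, 27.3 to 68.3%), an interval that overlaps that of complex 2. Among the 9 were Pcgf1 at 22.4, Cbx8 at 16.2, Rybp at 14.6, Bmi1 at 9.96, Cbx2 at 9.80, Phc2 at 8.47, Phc1 at 6.57 and Pcgf2 at 4.26. Their bodies were covered by 24.1% at most, in Phc2, and all 9 had H3K4me3 peaks at the start.

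**Figure D3:**
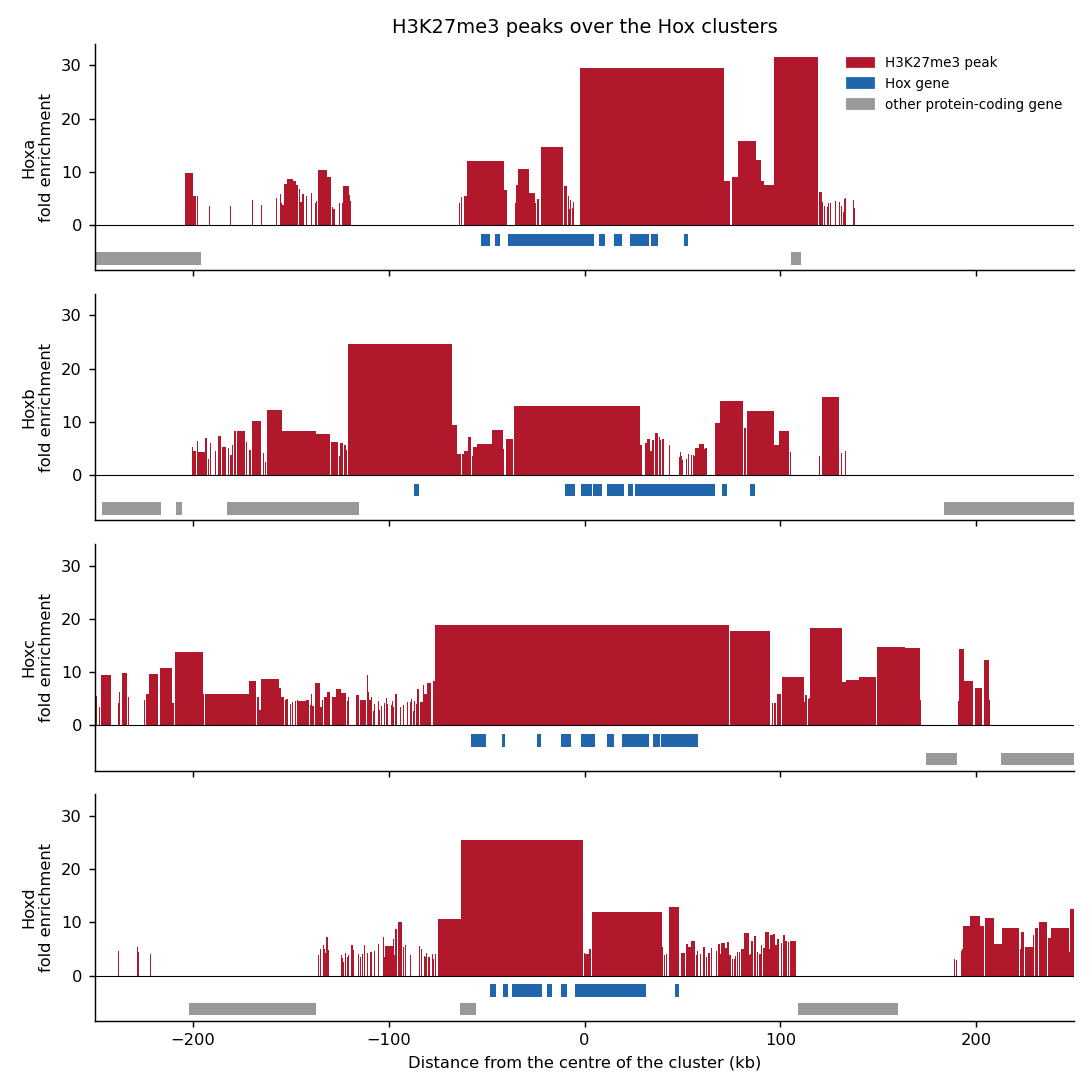
H3K27me3 peaks across the 4 Hox clusters: each red block is a peak drawn over its width (x axis, distance from the centre of the cluster in kb) at its fold enrichment (y axis), with Hox genes in blue and other protein-coding genes in grey below. The Hoxc cluster lies under 1 peak at 18.8, whereas the Hoxa cluster lies under 19 peaks that reach 29.5.

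The 4 Hox clusters were covered over most of their length in different numbers of peaks. Hoxc (115.7 kb) was covered over 100% by 1 peak, Hoxd (96.9 kb) over 97.3% by 10 peaks, Hoxa (105.5 kb) over 90.9% by 19 peaks, and Hoxb (173.9 kb, Hoxb13 included) over 86.9% by 43 peaks. SUZ12 peaks covered 98.8% of Hoxc, 78.2% of Hoxd, 54.4% of Hoxa and 52.5% of Hoxb, in the same order. H3K4me3 peaks covered from 0% (Hoxc) to 3.27% (Hoxd). Within Hoxb, Hoxb3 had 52.6% of its body covered, and Hoxb4 (85.6%) carried H3K4me3 and H3K27ac.

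Mature miRNAs of the Hox clusters lay under the same domains. Of 1005 miRNA hairpins in the RefSeq table, 97 (9.65%) were covered from end to end, against 4.10% of the chromosome span. The sequences below are shown because they group the covered hairpins by seed, bases 2 to 8, in capitals: the miR-10 and miR-196 families of the Hox clusters share a seed within each family, and miR-9 is made from 3 separate hairpins. The miR-17, miR-142a, miR-155 and miR-181a sequences, of miRNAs known in lymphocytes, are given for contrast.
miR-10a-5p: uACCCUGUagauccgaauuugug
miR-10b-5p: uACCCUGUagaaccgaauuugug
miR-196a-5p: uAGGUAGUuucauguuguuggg
miR-196b-5p: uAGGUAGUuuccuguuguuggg
miR-9-5p: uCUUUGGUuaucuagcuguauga
miR-17-5p: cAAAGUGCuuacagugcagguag
miR-142a-3p: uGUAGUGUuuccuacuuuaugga
miR-155-5p: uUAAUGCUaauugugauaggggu
miR-181a-5p: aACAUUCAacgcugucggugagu
Mir10a (fold enrichment 7.88), Mir10b (11.99), Mir196a-1 (12.99), Mir196a-2 (18.8) and Mir196b (29.5) were all covered whole, so every printed hairpin of the ACCCUGU and AGGUAGU seeds was under the mark. Mir9-1, Mir9-2 and Mir9-3, on chromosomes 3, 13 and 7, were covered whole at 14.4, 14.6 and 15.6. Mir17, Mir142 and Mir155 had 0% covered. The same miR-181a-5p is made from 2 hairpins, of which Mir181a-1 had 0% covered and Mir181a-2 on chromosome 2 was covered whole at 2.98.

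Peaks lay in clusters. The median gap between neighbouring peaks was 468 bp, against an even spacing of 22.1 kb, and 93.9% of peaks lay within 3 kb of another. Peaks no more than 3 kb apart were joined into 24143 domains with a median length of 2920 bp. The 4695 domains of at least 10 kb held 72.1% of the covered bases, and the 358 of at least 50 kb held 19.8%. A protein-coding body overlapped 71.8% of the domains of at least 10 kb, while 1285 of them touched neither a body nor a start window.

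The 7 longest domains included those of the 4 Hox clusters. The longest, 288.8 kb on chromosome 15, contained the 9 Hoxc genes. The next, 278.4 kb on chromosome 19, held Pax2, a kidney and eye regulator, with 84.4% of its length covered by 106 peaks. The third, 247.7 kb on chromosome 15, held the sodium channel gene Scn8a and Fignl2. Domains of Hoxb (244.5 kb), Dlx3 and Dlx4 with Itga3 and Pdk2 (201.6 kb), Hoxa (197.1 kb) and Hoxd (193.1 kb) followed. SUZ12 peaks covered 55.9% of the Hoxc domain, 45.9% of Hoxb, 52.4% of Hoxa and 49.9% of Hoxd, but 21.8% of the Pax2 and 12.7% of the Scn8a domain. The 172.1 kb domain over Itsn1, 97.1% covered, had 4.42% under SUZ12 peaks. The longest domain without a protein-coding body or start, 150.0 kb at chr8:120891802-121041848, had 77.4% of its length covered at a fold enrichment of up to 14.9.

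Neighbouring genes were marked together more often than genes at large. The next gene along the chromosome was marked in 42.5% of cases after a marked gene (41.2 to 43.8%) and in 19.6% after an unmarked gene (19.01 to 20.2%). With more than 20 kb between the bodies, where a single peak seldom reaches both, the shares were 39.1% (37.2 to 40.9%) and 25.4% (24.4 to 26.5%). Of the marked genes, 66.0% lay in runs of 2 or more, and 126 runs held 5 or more genes. The longest run, 12 genes on chromosome 11, comprised Calcoco2, Ttll6 and the 10 Hoxb genes and shared 6 start peaks. Runs of 10 genes were the Hoxc genes with Smug1 (2 start peaks), the Hoxd genes with Evx2 (3), the type I keratins from Krt222 to Krt23 (10), a serine protease and secretory protein cluster on chromosome 17 (10) and the Arxes, Bex and Tceal genes on X (8). The keratin run thus had a separate peak at each start, with fold enrichments from 2.77 at Krt222 to 9.97 at Krt25, whereas the Hoxc run lay under 1 wide peak and a second narrow one at Smug1 (4.58).

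**Figure D4:**
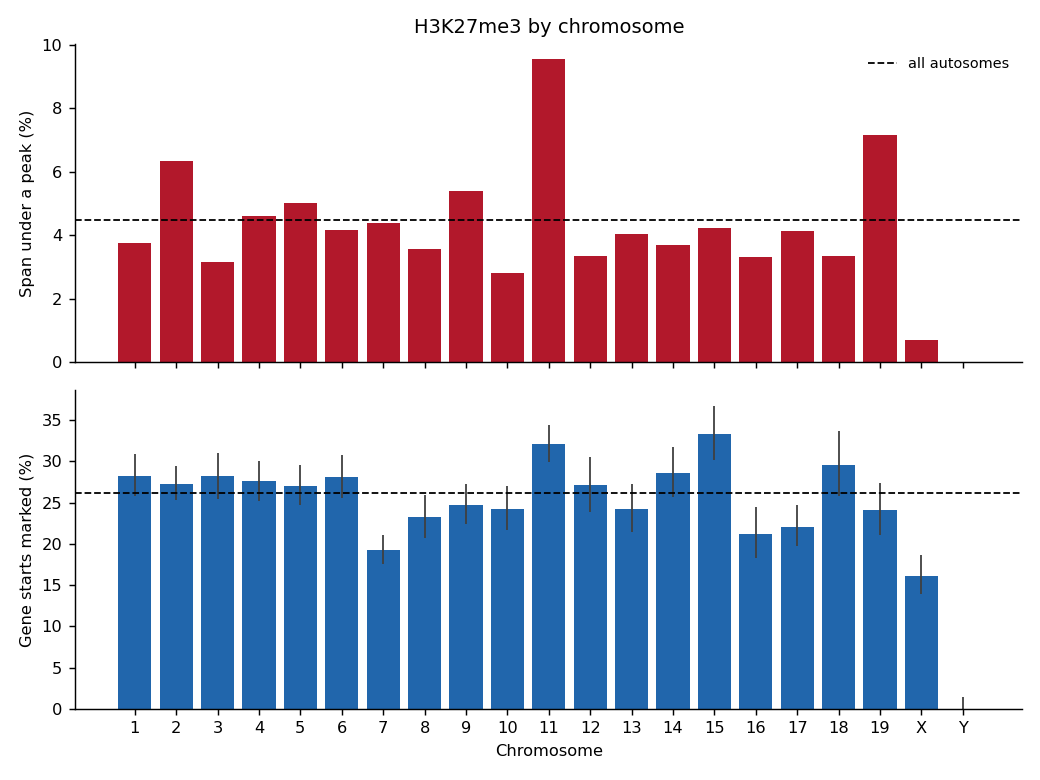
Share of each chromosome's span under an H3K27me3 peak (upper bars, percent) and share of its protein-coding starts that were marked (lower bars, percent, with 95% Wilson intervals); dashed lines are the values of all autosomes, 4.49% and 26.2%. Chromosome 11 reaches 9.54% in the upper bars, X stands at 0.708% and Y near 0.

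Chromosomes differed in cover more than in the share of marked genes. Chromosome 11 had 9.54% of its span covered, chromosome 19 had 7.16% and chromosome 2 had 6.35%, against 4.49% of all autosomes, and chromosome 10 was the lowest autosome at 2.80%. Marked starts ranged from 19.3% on chromosome 7 to 33.4% on chromosome 15, with 32.1% on chromosome 11. Chromosome 11 was 2.13 times as covered as the autosomes together, and its ratio lay between 1.72 (N-MYC) and 1.89 (SUZ12) in the other 6 lists. Across the 19 autosomes, cover followed gene density (Pearson 0.706, Spearman 0.753) and the cover of all 6 other lists, from 0.787 (H3K27ac) to 0.946 (EZH2) by Pearson and from 0.660 (N-MYC) to 0.916 (SUZ12) by Spearman. This is a description only, since the chromosomes share the same libraries in each list. Outside protein-coding bodies, chromosome 11 had 9.07% of its bases covered, against 3.88% for the autosomes, so the excess was not limited to bodies.

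Along the chromosomes the cover was patchy. Of 2722 windows of 1 Mb, 586 had no covered base and 312, or 11.5%, held 50% of the covered bases. Of the windows with no covered base, 417 were among the 2460 autosomal windows and 79 among the 171 of X. At least 20% was covered in 88 windows, of which 18 lay on chromosome 11 and 15 on chromosome 2. The densest window, chr11:95000001-96000000, was 43.1% covered and held Dlx3, Dlx4, Ngfr, Igf2bp1 and 8 other marked starts. The next were a window of chromosome 19 with Pax2 and Wnt8b (42.2%) and a window of chromosome 9 with Pou2f3 and Nectin1 (42.2%), in which all 5 genes were marked.

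The X chromosome carried little of the mark. Peaks covered 0.708% of X, 0.158 times the autosomal share, and the corresponding ratio in the other lists was between 0.102 for p300 and 0.365 for H3K4me3. Marked starts were 156 of 966 on X (16.1%, 13.96 to 18.6%). Among starts without H3K4me3, 18.3% were marked on X (15.5 to 21.4%) and 37.6% on the autosomes (36.7 to 38.6%). Among starts with H3K4me3 the shares were 11.7% (8.64 to 15.8%) and 14.8% (14.1 to 15.5%), whose intervals overlap. The strongest marked X starts included Mid2 (17.0) and Fhl1 (15.5), with 6.83% and 11.3% of the body covered. Chromosome Y had 2 peaks and 0 of 256 marked starts, which allows a share of up to 1.48%. The labels give no sex, and the number of X and Y copies in the cells was not tested.

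Other marks at the same starts give the context of the marked genes. The share of all protein-coding starts with a peak within 1 kb was 43.4% for EZH2, 13.2% for SUZ12, 48.9% for H3K4me3, 49.8% for H3K27ac, 31.0% for N-MYC and 37.4% for p300. At H3K27me3-marked starts it was 54.4%, 51.7%, 28.3%, 20.02%, 9.35% and 8.35%, and at unmarked starts 39.7%, 0.135%, 55.9%, 59.9%, 38.4% and 47.3%, in the same order. The lists come from libraries of different peak numbers, from 9798 peaks (N-MYC) to 123056, so the shares are comparable between marked and unmarked starts and not between lists. The 1574 marked starts with H3K4me3 had less of the window covered (median 1472 bp) than the 3986 without it (median 2001 bp), a like median fold enrichment (9.02 and 9.27), and less of the body covered (median 10.1% and 23.8%).

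Marked starts of high and low fold enrichment differed in their company. The 5560 marked starts were divided into 5 equal groups by the fold enrichment of the strongest peak. From the lowest group (1.65 to 4.99) to the highest (14.5 to 31.6), the share with a SUZ12 peak went from 4.95% to 95.1% and the share with EZH2 from 14.9% to 92.8%, while H3K27ac went from 25.2% to 13.04%. Developmental transcription factors numbered 3 of the 1112 genes in the lowest group and 115 of the 1112 in the highest. The median share of the body covered went from 6.26% to 45.1%.

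**Figure D5:**
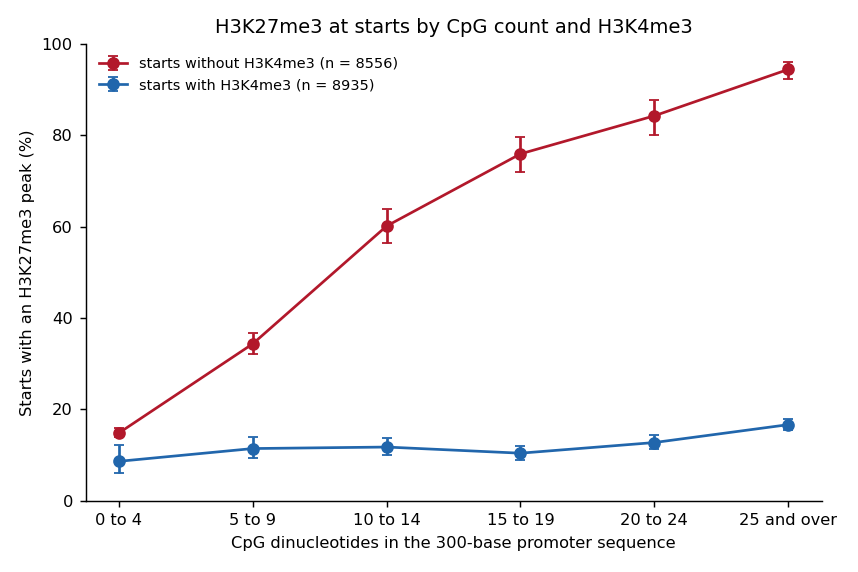
Share of gene starts with an H3K27me3 peak within 1 kb (y axis, percent, with 95% Wilson intervals) by the number of CG dinucleotides in the 300-base promoter (x axis), for starts with and without an H3K4me3 peak within 1 kb. Without H3K4me3 the share climbs from 14.9% to 94.4%, and with H3K4me3 it stays between 8.64% and 16.7%.

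The CpG content of the promoter separated marked from unmarked starts where H3K4me3 was absent. The letters CG were counted in the 300-base RefSeq promoter nearest the gene start, on 1 strand since the pair reads the same on both, and peaks were then sought within 1 kb of that promoter's own start. Sequences were matched for 17491 genes, 79.9% of the protein-coding genes, and for none of chromosome 18. As an account of all genes the count is therefore void, and it stands for these 17491 genes. At 15 or more CG stood 47.4% of all these promoters. The median was 16 at the 4140 marked starts and 12 at the 13351 unmarked ones, and the quartiles overlapped (7 to 26 and 3 to 24). With and without H3K4me3 together, 14.5% of starts were marked at 0 to 4 CG and 27.5% at 5 to 9. In the steps from 10 CG upward the share lay between 24.6% and 30.6%, with no steady rise. Starts without H3K4me3 were 4773 of the 5097 at 0 to 4 CG and 628 of the 4277 at 25 or more. Among starts without H3K4me3 the medians were 12 for the 2926 marked and 2 for the 5630 unmarked starts.

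Within those starts the share that was marked rose in every step of CpG count, from 14.9% (13.9 to 15.9%) at 0 to 4 CG, through 34.4% at 5 to 9, 60.1% at 10 to 14, 75.9% at 15 to 19 and 84.3% at 20 to 24, to 94.4% (92.3 to 96.0%) of the 628 starts with 25 or more. The median fold enrichment where marked rose with it, from 5.21 to 13.04. Starts with H3K4me3 did not show this course: 8.64% (6.05 to 12.2%) were marked at 0 to 4 CG and 16.7% (15.5 to 17.9%) at 25 or more. Evx1 (12 CG) and Mycn (14 CG), printed above, are marked starts of the first kind, and Cdkn2a (45 CG) of the second. Rag1 (3 CG) and Lyz2 (1 CG) belong to the 14.9% of CpG-poor starts without H3K4me3 that were marked, and Rpl10 (17 CG) to the larger part of H3K4me3-carrying starts that were not.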

How the data were processed

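ChIPmentation peaks of 7 libraries, 1 per antibody, were analysed as deposited. Per the submitters' processing notes, FastQC, Bowtie2, SAMtools, MACS2 and deepTools and the builds mm10 and GRCm38 were used. Versions, the control, filters and pooling are not given in the sources used here. Each deposited list gives the authors' peak positions, a fold enrichment (a ratio), a −log10 p and a −log10 q per peak, and a score that was not used. The smallest −log10 q was 2. Read depth is unknown, since the lists carry no counts.

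Entries with the same position were counted once per list, covered bases were counted once where peaks touched, and peaks were compared with RefSeq genes (GRCm38.p6) with an overlap of at least 1 bp. A start window spanned 1 kb either side of the gene start. Peaks up to 3 kb apart were joined into domains, and density was taken in windows of 1 Mb. The tools were python 3.11.15, numpy 2.4.6, pandas 2.3.3, scipy 1.17.1 and matplotlib 3.10.9. The overlap and interval functions were tested on simulated data. No p-value was computed, since each antibody has 1 library.

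Genes were named by a rule: 5 by covered bases, 5 by covered share among genes of at least 10 kb, 5 by fold enrichment, up to 3 members of highest covered share per family and its exceptions where 5 or fewer, the genes of the 3 longest domains and runs, and members of the lineage, cell cycle and Polycomb lists. Genes outside it (Dlx3, Dlx4, Evx2, Ngfr, Igf2bp1, Wnt8b, Pou2f3, Nectin1, Mid2, Fhl1, Hba-a2 and the like) were named after their values were seen, as contents of the domains, windows and chromosomes described. Results on some genes are not reported here. The members, families and lists were chosen with earlier results of these data known. Alternatives were a stricter q, a fold of at least 4, other window, overlap and joining distances, all annotated genes, and leaving out X and Y.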

Additional observations from a re-analysis of the deposited data

How the results depend on the processing

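With 1 library per antibody, no library could be left out and nothing here measures the spread between animals. No paired analysis was possible because each antibody has 1 library. Of 48 alternative values for 10 results, 29 kept close to the value reported, 19 moved and 0 changed direction. A count was taken as moved beyond 1.5 times, and a share beyond its 95% Wilson interval. A chromosome ratio was taken as moved when its relative change exceeded that of the Wilson interval of the chromosome's share of peaks, which is narrow, so that small shifts count. A q of 1e-05 kept 84246 peaks and a fold enrichment of at least 4 kept 72440.

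The number of genes with at least 50% of the body covered, 1599, became 2613 at a minimum of 25% and 987 at 75%. Marked starts, 5560, became 9852 (19.7%) over all annotated genes, and 4167 with the genes of known strand alone, an alternative chosen after seeing the data. The share of covered bases in protein-coding bodies, 48.1%, became 58.6% with all genes, 63.8% with 5 kb flanks, 48.65% at the stricter q, 48.8% at the stricter fold and 45.1% by summits. The share of peaks within 3 kb of another, 93.9%, became 91.1% at the stricter q and 89.1% at the stricter fold, and was 84.5% within 1 kb and 97.4% within 10 kb. The 24143 domains became 41386 when joined over 1 kb and 14099 over 10 kb. The density of chromosome 11 relative to the autosomes, 2.13, became 2.17 at the stricter fold and 1.96 in peaks per Mb, and that of X, 0.158, became 0.166 and 0.198. The share of genes used by every cell with a marked start, 2.69%, became 1.01% when 50% of the window had to be covered. The cause of each shift was not tested. Leaving out X and Y gives no value for X.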
